A study of Mus musculus with 21 samples.

Results

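The comparison described here asked whether the difference between neurons of the NesE-Nkx2.2 embryonic stem cell line and neurons of the wild type line was the same under FGF8 as under retinoic acid (RA). It was the interaction (Nkx2.2 line minus wild type with FGF8) minus (Nkx2.2 line minus wild type with RA), with 3 arrays in each of 4 groups, so 12 of the 21 arrays of the series. A positive interaction means that the line effect, Nkx2.2 line minus wild type, lay higher in the FGF8 arm than in the RA arm. All samples were neurons made from mouse embryonic stem cells, and per the labels' extraction protocol RNA came from purified post-mitotic neurons. The remaining 9 arrays, of the NesE-Lmx1a and NesE-Olig2 lines, entered the fit only to estimate the spread.

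The Nkx2.2 line received SHH and FGF8 or SHH and RA for 10 days, and the labels place these serotonergic neurons in the rostral and the caudal hindbrain. The wild type neurons of the FGF8 arm were taken at day 10 and are labelled dorsal midbrain. The wild type neurons of the RA arm were taken at day 8 and are labelled dorsal hindbrain. In the RA arm the line and 2 days of differentiation therefore cannot be told apart. The titles of the wild type samples name SHH together with FGF8 or RA, while their source descriptions name FGF8 or RA alone, so whether the wild type cells saw SHH is not settled. Each transgenic line is a single cell line, the replicates are labelled biological, and nothing says how they were separated, so p-values measure the spread between these samples.

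Nkx2.2 is a homeodomain factor of ventral neural progenitors that give rise to hindbrain serotonergic and visceral motor neurons. FGF8 is the signal of the isthmus, the organizer between midbrain and hindbrain, and retinoic acid is the caudalizing signal that switches on Hox genes in the hindbrain and spinal cord through retinoic acid receptors. Wild type neural cells without strong SHH signalling tend to make dorsal neurons, among them inhibitory and commissural interneurons marked by LIM homeodomain and paired box factors.

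Every value printed for an array is the deposited log2 signal as a deviation from that probe set's median, so levels of different genes cannot be compared. The values do not say whether a gene that lies close to 0 on most arrays was detected there. Calls required a log2 difference of at least 1 in either direction together with a Benjamini-Hochberg adjusted p below 0.05 from limma, over 18193 genes.

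Replicate 2 of the FGF8 wild type stood apart within its own group, in counts that use no comparison between groups. This array was already known from earlier results of these data, so the check was not made in advance. On that array 428 genes lay more than 2 log2 units below the mean of replicates 1 and 3, and 58 lay more than 2 above it, counted over genes where replicates 1 and 3 were within 1 of each other. Counted the same way, the next largest numbers were 249 genes above on replicate 3 of the RA wild type and 202 above on replicate 3 of the RA Nkx2.2 line. Its mean over 27 cell cycle genes was -1.74, against 2.05 and 2.61 in replicates 1 and 3. The spike-in control bioC split the arrays into 2 sets: replicates 1 and 2 of the FGF8 wild type fell in one, and the other 10 arrays of the comparison in the second. The main counts below are also given without replicate 2 of the FGF8 wild type and within the second set. In that set the FGF8 wild type is replicate 3 alone, which is assumed to vary like the other groups, so a call there is no replicate check of that group. The mean of 14 mesenchyme and collagen genes was -0.48, 2.96 and 2.05 in the RA wild type and at most 1.79 on the other 9 arrays, and the part of such cells in the results was not tested. The mean of 10 endothelial and blood genes lay between -0.04 and 0.11 on all 12 arrays, with Pecam1 and Aif1 within 0.11 of 0, while Cdh5 of endothelium read 1.15 on replicate 2 of the RA wild type and 0.69 on replicate 1 of the FGF8 Nkx2.2 line. The mean of 12 pluripotent and endoderm genes was 0.86, 0.06 and 1.15 in the RA Nkx2.2 line and between -0.23 and 0.28 on the other 9 arrays. Pou5f1 of pluripotent cells lay within 0.11 of 0 on all 12, and in the RA arm the line raised Sox17 by 2.69 and Foxa1 by 2.85, factors known from endoderm. The part of these genes in the results was not tested.

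Nkx2-2, the gene carried by the line, read 0.96, 1.08 and 0.13 in the FGF8 Nkx2.2 line and -0.98, -1.28 and -2.38 in the FGF8 wild type. In the RA arm it read 1.60, 1.85 and 1.46 in the Nkx2.2 line and -1.19, -0.80 and -0.92 in the wild type. The lines did not overlap in either arm. Nkx2-2 rose by 2.27 with FGF8 (adjusted p 0.00404) and by 2.61 with RA (adjusted p 0.000277), and its interaction was -0.34 (SE 0.60, adjusted p 0.963). Whether its probe set reads the transgene is not known here.

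The line effect differed between the arms for 796 genes, or 4.38% of those tested. It was higher in the FGF8 arm for 473 genes (2.6%) and lower for 323 (1.78%). The line effect itself was called for 514 genes up (2.83%) and 311 down (1.71%) in the FGF8 arm, and for 1608 up (8.84%) and 1667 down (9.16%) in the RA arm. Between treatments, FGF8 and RA differed for 785 genes (4.31%) in the Nkx2.2 line and for 1346 (7.4%) in the wild type. Both arms called 513 genes in the same direction, which is 62.2% of the FGF8 calls and 15.7% of the RA calls, and for 479 of these the interaction was not called. Of the 2753 genes called in the RA arm and not in the FGF8 arm, only 617 had a called interaction. For the rest, the difference between the arms missed the threshold.

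Among the 796 genes, 572 responded to the line in the RA arm only (71.9%), with a line effect under 1 and not called in the FGF8 arm, or 3.14% of all genes tested. Of these, 241 rose and 331 fell in the Nkx2.2 line. The FGF8 arm alone responded for 75 genes (9.42%, or 0.412% of all genes tested), 47 up and 28 down. In 34 genes the line effect went the same way in both arms with a different size, and in 9 it went opposite ways. Without replicate 2 of the FGF8 wild type, 682 genes were higher and 834 lower, 793 responded in the RA arm only and 342 in the FGF8 arm only. Other single arrays moved the counts too: 646 genes were lower without replicate 3 of the RA wild type, and 188 without its replicate 1. Without replicate 1 of the FGF8 wild type 233 genes were higher and 171 lower, and leaving out its replicate 3 gave 242 and 169. Of the 796 calls, 396 were kept without replicate 1 and 402 without replicate 3. In the Nkx2.2 line, leaving out replicate 1 gave 307 genes higher when that array was of the FGF8 arm and 315 when it was of the RA arm. With the 12 arrays alone the interaction called 470 genes higher and 189 lower, and 511 of the 796 were among them. Totals alone do not say how many of the 796 calls a setting kept. Within the second bioC set, where the FGF8 wild type has 1 array, 475 were higher and 509 lower, with 293 genes in the FGF8 arm only and 441 in the RA arm only.

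**Figure D1:**
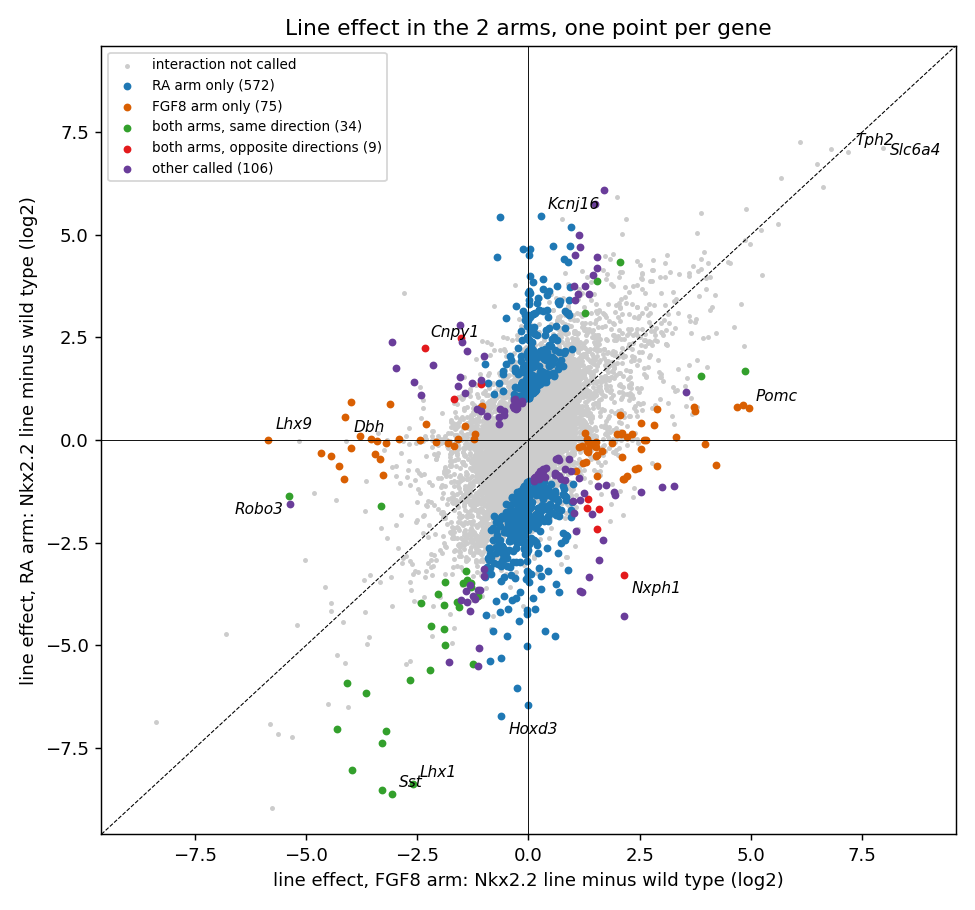
Line effect of each gene in the FGF8 arm (x axis) and in the RA arm (y axis), both as log2 differences of the Nkx2.2 line minus wild type, with 1 point per gene and colours for the class of the called interaction. The 572 genes of the RA arm alone spread along the vertical axis, the 75 of the FGF8 arm alone along the horizontal axis, and the serotonergic genes Tph2 and Slc6a4 lie close to the dashed line of equal effects.

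Which group carried each interaction was read from the 4 group means: a group stood apart when it lay farther from the nearest other mean than the other 3 spanned. The RA wild type carried 283 of the 796 (35.6%), 215 as the high group and 68 as the low group. The RA Nkx2.2 line carried 238 (29.9%), 156 high and 82 low. The FGF8 wild type carried 67 (8.42%), and the FGF8 Nkx2.2 line carried 16 (2.01%), 15 of them high. A further 45 genes were crossed, with one line high in one arm and the other line high in the other arm, and 147 had no single group apart. These counts rest on means and did not require that arrays not overlap. No overlap was seen for 208 of the 215 genes high and 63 of the 68 low in the RA wild type. It was seen for 154 of 156 high and 82 of 82 low in the RA Nkx2.2 line. For the FGF8 wild type the numbers were 24 of 29 high and 34 of 38 low. Over all genes tested, 16.6% had 1 group apart with no overlap of its 3 arrays with the other 9, so the pattern itself is common. That share is not split by group. Without replicate 2 of the FGF8 wild type, that group carried 372 genes (24.5%) and the RA wild type 440 (29%).

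**Figure D2:**
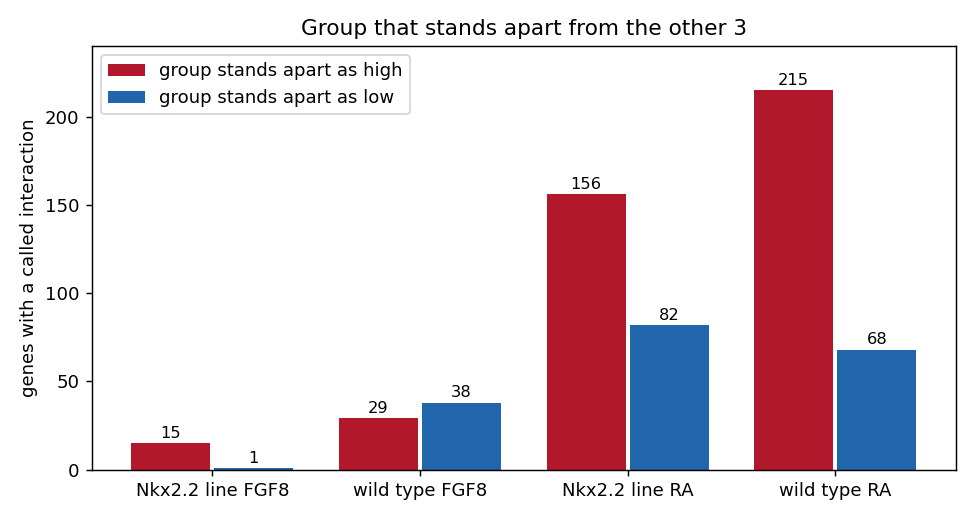
Number of genes with a called interaction for which 1 of the 4 groups stands apart from the other 3, as the high group (red) or the low group (blue). The 2 RA groups carry most of them, led by 215 genes high in the RA wild type and 156 high in the RA Nkx2.2 line.

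Serotonergic genes rose in the Nkx2.2 line in both arms, and no interaction was called among 16 genes of the serotonergic phenotype. The line raised 9 of the 16 in the FGF8 arm and 12 in the RA arm, against 2.83% and 8.84% of all genes. The median interaction of the 16 was -0.28 beside -0.02 over all genes. In limma, 2 of the 16 reached an unadjusted p under 0.05. The count of calls was also 0 with 12 arrays, with bioC as a block and without replicate 2 of the FGF8 wild type. Array weights called 1 higher and 2 lower. Without replicate 1 of the FGF8 Nkx2.2 line 1 was called lower. The count was likewise 1 lower when replicate 2 of the FGF8 wild type was left out together with that array. Tph2, the brain enzyme that starts serotonin synthesis, read 5.85, 6.40 and 4.48 in the FGF8 Nkx2.2 line and -2.0, 1.13 and -3.97 in the FGF8 wild type. In the RA arm it read 4.32, 4.62 and 4.36 in the Nkx2.2 line and -2.52, -1.97 and -3.26 in the wild type. The groups of the 2 lines did not overlap in either arm, and the interaction of Tph2 was 0.18 (SE 1.49, adjusted p 0.977).

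Slc6a4, the serotonin transporter, rose by 7.97 in the FGF8 arm and 7.12 in the RA arm, and Maob, the monoamine oxidase of serotonergic neurons, by 5.68 and 6.38. Slc18a2, the vesicular monoamine transporter, had an interaction of -0.75 (SE 0.47, adjusted p 0.463). Maoa had the most negative value of the list, -2.92 (SE 0.96, adjusted p 0.0936), with a line effect of 2.10 in the FGF8 arm that was not called and a rise of 5.01 in the RA arm. These misses do not show equal responses, since the standard error of the Slc6a4 interaction was 1.72.

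Of 9 transcription factors of the serotonergic lineage, only En1 (11.1%, against 4.38% of all genes) had a called interaction, 3.23 (SE 0.58, adjusted p 0.00566). En1, an engrailed homeodomain factor of midbrain and rostral hindbrain, read -2.31, -1.83 and -1.29 in the RA Nkx2.2 line, 0 on all 3 RA wild type arrays to 2 decimals, and 1.49, 2.05 and 0.60 in the FGF8 Nkx2.2 line. The RA Nkx2.2 line lay below all 9 other arrays. Gata3, a zinc finger factor of serotonergic neurons, rose by 3.67 in the FGF8 arm and had a line effect of 0.62 in the RA arm, but its interaction of 3.05 missed the threshold (adjusted p 0.0656). Under 4 of the alternatives Gata3 was called. The count for the 9 factors stayed at 1 with the 12 arrays alone and with bioC as a block. It was 2, both higher, without replicate 2 of the FGF8 wild type and with the replicate number as a block. Array weights called 3 higher and 1 lower.

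**Figure D3:**
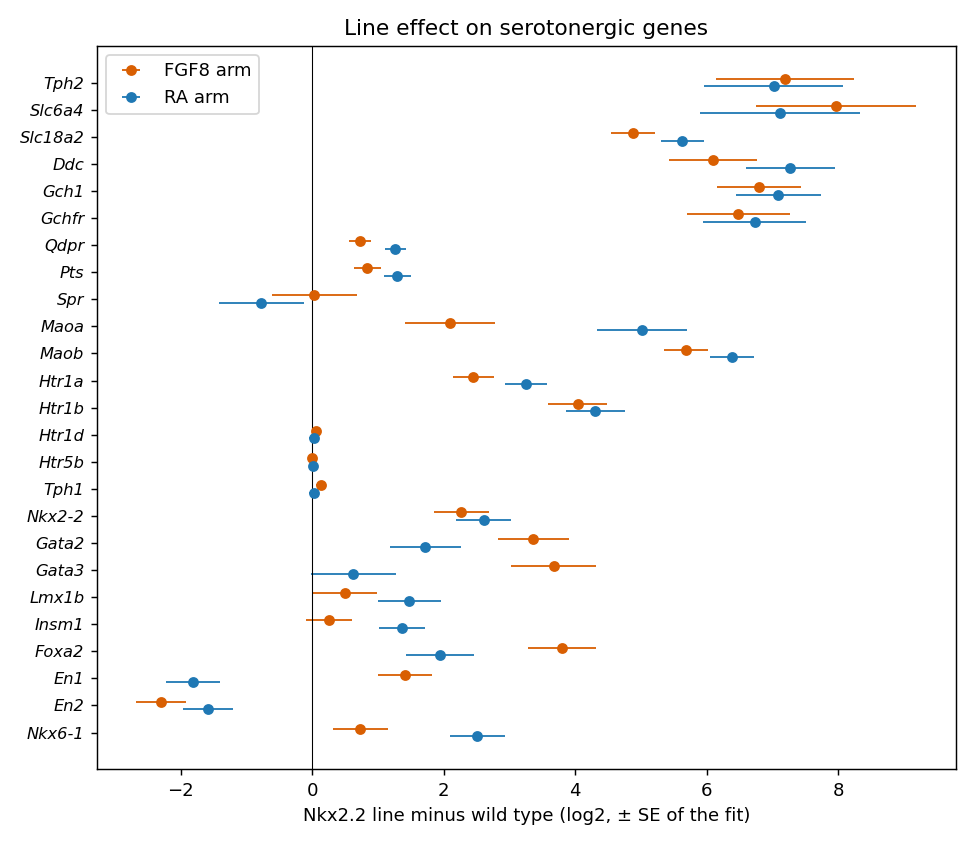
Line effect, Nkx2.2 line minus wild type in log2 units with the standard error of the fit, for 16 genes of the serotonergic phenotype and the transcription factors of that lineage, in the FGF8 arm (orange) and the RA arm (blue). The pairs of points lie close together for Tph2, Slc6a4, Gch1 and Maob, while En1 lies above 0 in the FGF8 arm and below 0 in the RA arm.

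The Hox genes, whose products set position along the hindbrain and spinal cord, fell with the Nkx2.2 line mainly in the RA arm. Of 23 measured, 8 were called higher (34.8%, against 2.6% of all genes) and none lower. In limma the line lowered 17 of the 23 in the RA arm and 7 in the FGF8 arm, all 7 of which also fell in the RA arm. Over all genes it lowered 9.16% in the RA arm and 1.71% in the FGF8 arm. The 8 were Hoxa3, Hoxd3, Hoxa4, Hoxb4, Hoxb5, Hoxc6, Hoxd8 and Hoxb9. With the 12 arrays alone 2 of the 8 were called, Hoxd3 and Hoxa4, with bioC as a block 7 were, and without replicate 2 of the FGF8 wild type 8 were.

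Hoxd3 read 7.41, 6.09 and 6.46 in the RA wild type. It read -0.08 on average in the FGF8 Nkx2.2 line, -0.06 in the RA Nkx2.2 line, and 1.22, 0.46 and -0.09 in the FGF8 wild type. Only the RA wild type was high, and its 3 arrays lay far above the other 9. The line effect was -6.71 in the RA arm and -0.61 in the FGF8 arm, an interaction of 6.10 (SE 0.42, adjusted p 6.3e-07). The NesE-Olig2 neurons, given SHH and RA for 8 days, also read high for Hoxd3, with a mean of 5.21.

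Hoxa4 read 7.72, 6.49 and 7.59 in the RA wild type, 0.23, -0.03 and 2.27 in the RA Nkx2.2 line, and between -0.35 and 0.05 on the 6 FGF8 arrays. The interaction was 6.43 (SE 0.63, adjusted p 2.61e-05). Hoxb4 differed from these genes: it was up in both RA groups, at 7.01, 6.20 and 5.67 in the wild type and 4.92, 4.09 and 4.06 in the Nkx2.2 line. Its interaction of 1.80 (adjusted p 0.0245) was lost with the 12 arrays alone (adjusted p 0.0813) and with bioC as a block (adjusted p 0.0675). Hoxb5 had the same order, with means of 9.57 in the RA wild type, 4.52 in the RA Nkx2.2 line, 0.72 in the FGF8 wild type and -0.39 in the FGF8 Nkx2.2 line, and an interaction of 3.95 (adjusted p 0.0273).

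Hoxb9 was also up in part of the FGF8 wild type, at 4.10, 4.19 and 1.36, against 7.12, 7.38 and 8.32 in the RA wild type. Both groups of the Nkx2.2 line stayed low, from -0.14 to 0.97. The line effect was -3.30 in the FGF8 arm and -7.37 in the RA arm, so both arms fell, and the interaction of 4.07 (SE 0.79, adjusted p 0.009) measures the larger fall with RA. Hoxc8 showed falls of 4.12 and 5.42 and no called interaction (1.30, adjusted p 0.647). For Hoxc6, the 2 other probe sets gave 2.95 and -0.57 against the 2.69 of the one used. In the 12 fits that left out 1 array, the call was lost in 10 for Hoxc6, 8 for Hoxa3, 5 for Hoxb5 and 4 for Hoxb4. It was kept in all 12 for Hoxd3, Hoxa4, Hoxd8 and Hoxb9.

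**Figure D4:**
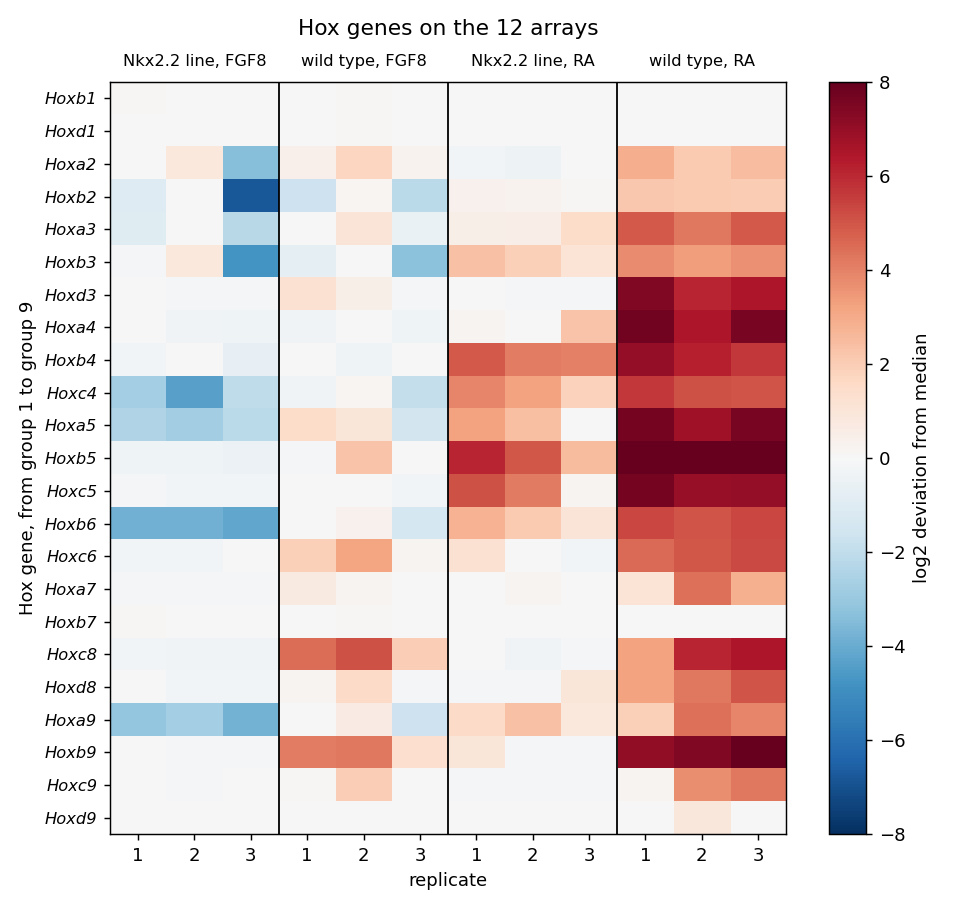
Deposited log2 deviation of 23 Hox genes (rows, from group 1 at the top to group 9) on the 12 arrays (columns, by group and replicate). The RA wild type is the darkest red block, with Hoxb5 near 9.57 on average, Hoxd3 reaches at most 1.22 outside it, and Hoxb4 and Hoxb5 are red on all 6 RA arrays.

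The promoter window of Hoxd3 is shown because this gene was high in the RA wild type and near 0 in both groups of the Nkx2.2 line. All promoter sequences here are from RefSeq on build GRCm38.p6, run from 250 bases before to 50 bases after the annotated start, and are printed 5′ to 3′ on the strand of the gene. The Hoxd3 window, chr2:74711743-74712042 on the plus strand, holds none of the motifs searched below.
Hoxd3: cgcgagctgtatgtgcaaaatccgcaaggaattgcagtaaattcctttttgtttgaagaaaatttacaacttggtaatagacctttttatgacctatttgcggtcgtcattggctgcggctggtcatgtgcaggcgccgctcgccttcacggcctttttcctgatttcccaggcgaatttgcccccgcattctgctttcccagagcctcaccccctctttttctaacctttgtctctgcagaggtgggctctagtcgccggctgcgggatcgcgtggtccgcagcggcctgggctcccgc

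Genes of retinoic acid handling were measured for 17 members, and 2 had a called interaction (11.8%, against 4.38% of all genes), Rarb higher and Cyp26b1 lower. Rarb, a retinoic acid receptor that is itself switched on by retinoic acid, read 3.72, 2.73 and 3.56 in the RA wild type and 0.53, -0.21 and -3.14 in the RA Nkx2.2 line. In the FGF8 arm it read -1.90, -0.73 and -3.10 in the wild type and had a mean of 0.23 in the Nkx2.2 line. The RA wild type lay above all other arrays, and the interaction was 6.42 (SE 1.04, adjusted p 0.00275). The fall of 4.28 in the RA arm was called, while the FGF8 arm, at 2.14 (adjusted p 0.103), was not.

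Cyp26b1, an enzyme that degrades retinoic acid, was high in another group: 4.76, 2.33 and 4.31 in the FGF8 wild type, with means of -0.19, -0.06 and 0.14 in the FGF8 Nkx2.2 line, the RA Nkx2.2 line and the RA wild type. The FGF8 wild type did not overlap the other 9 arrays. The interaction was -3.80 (SE 0.61, adjusted p 0.00259). Crabp1, a retinoic acid binding protein, fell in the line by 4.58 in the FGF8 arm and 3.58 in the RA arm with no called interaction (-0.99, adjusted p 0.48). Crabp2 likewise fell by 3.60 and 4.80.

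The Rarb promoter is shown because it holds a direct repeat of the kind that retinoic acid receptors bind. Both strands were searched for GGTTCA and AGTTCA with 5 bases between them, and for AGGTCA followed by AGGTCA at the same spacing. The first motif is the repeat of the Rarb promoter itself, so its match in Rarb was fixed in advance. The first was found in 2 of 32851 promoter windows (0.00609%) and the second in 3 (0.00913%). Of the 215 genes high in the RA wild type, 168 had a promoter in the table. Beyond Rarb itself, none of them held the first motif, and none held the second. The match, in capitals, starts 53 bases before the annotated start. The window is chr14:16575427-16575726 on the minus strand.
Rarb: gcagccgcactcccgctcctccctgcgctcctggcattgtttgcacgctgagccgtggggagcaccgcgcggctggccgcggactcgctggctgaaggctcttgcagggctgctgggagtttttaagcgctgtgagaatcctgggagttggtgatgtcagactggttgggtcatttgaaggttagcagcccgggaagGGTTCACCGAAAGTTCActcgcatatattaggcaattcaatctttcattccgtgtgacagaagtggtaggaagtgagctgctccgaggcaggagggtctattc

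Markers of dorsal and intermediate interneurons were low in the Nkx2.2 line in both arms. Of 18 measured, the line lowered 9 in the FGF8 arm and 12 in the RA arm, against 1.71% and 9.16% of all genes. The interaction was called for 7 higher (Lhx1, Lhx5, Pax8, Foxd3, Foxp2, Gbx1 and Wt1) and 3 lower (Lhx9, Tlx1 and Barhl2). That is 55.6% of the list, against 4.38% of all genes. The median interaction of the 18 was 1.44. Of the 10, 5 were also called with the 12 arrays alone, and without replicate 2 of the FGF8 wild type the counts were 8 and 3. In the 12 fits that left out 1 array, the call was lost in 11 for Barhl2, 10 for Tlx1 and 10 for Gbx1. It was kept in all 12 for the others.

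Lhx1, a LIM homeodomain factor of inhibitory interneurons, had 4 separate levels. It read 4.68, 4.52 and 4.0 in the RA wild type, 2.05, 3.20 and 2.0 in the FGF8 wild type, -0.23, -1.52 and 1.19 in the FGF8 Nkx2.2 line and -3.94, -3.96 and -4.05 in the RA Nkx2.2 line. No group overlapped another. Lhx1 fell by 2.60 with FGF8 (adjusted p 0.0231) and fell by 8.39 with RA, an interaction of 5.79 (SE 0.91, adjusted p 0.00233). Both RA groups contributed, the wild type as the highest and the Nkx2.2 line as the lowest. The second probe set of Lhx1 gave 5.61.

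Pax8, a paired box factor of the isthmus and of inhibitory interneurons, was high in the RA wild type alone, at 6.77, 6.38 and 4.90, with 0.78 as the highest of the other 9 arrays. Its interaction was 5.78 (SE 0.46, adjusted p 3.06e-06). A second probe set of Pax8 stayed flat, at -0.03. Foxd3, a forkhead factor of neural crest and interneurons, read 2.74, 2.52 and 2.51 in the RA wild type and no more than 0.08 elsewhere, an interaction of 2.59 (SE 0.35, adjusted p 0.000739). Skor1, a corepressor of dorsal interneurons, fell by 3.30 in the FGF8 arm and fell by 8.53 in the RA arm (interaction 5.23, adjusted p 0.00101).

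Lhx3, the LIM factor of motor neurons and ventral V2 interneurons, had the smallest error among the 12 most positive interactions. It read 5.23, 5.07 and 4.61 in the RA wild type and between -0.05 and 0.08 on the other 9 arrays. The interaction was 4.98 (SE 0.16, adjusted p 2.96e-11). Its mean was 7.97 in the NesE-Olig2 neurons, the labelled somatic motor neurons. A gene of ventral identity was thus high in the wild type neurons labelled dorsal hindbrain. Gbx2, a factor of the rostral hindbrain, fell by 3.20 and 7.09 in the 2 arms (interaction 3.89, adjusted p 0.000628).

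Genes of inhibitory transmission divided by which RA group was apart. Of 17 measured, 3 were called (17.6%, against 4.38% of all genes), all higher and all in the RA arm only. All 3 held with the 12 arrays alone. Gad1, which makes GABA, read -0.76, -1.09 and -0.87 in the RA Nkx2.2 line. The other 9 arrays lay between 1.54 and 4.57, so the RA Nkx2.2 line alone was low. The line effect was -4.78 in the RA arm and 0.60 in the FGF8 arm, an interaction of 5.38 (SE 1.17, adjusted p 0.0165), and the second Gad1 probe set gave 4.96.

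Slc32a1, the vesicular transporter of GABA and glycine, had the same shape, with means of -0.32 in the RA Nkx2.2 line against 4.98 in the RA wild type, 3.93 in the FGF8 wild type and 3.32 in the FGF8 Nkx2.2 line (interaction 4.69, adjusted p 0.0128). Its 3 other probe sets gave -0.25, -0.10 and -0.02. Slc6a5, the glycine transporter of glycinergic neurons, was instead high in the RA wild type alone, at 6.11, 5.23 and 4.73, with a highest value of 2.28 elsewhere (interaction 4.52, adjusted p 0.000727). The second probe set of Slc6a5 was flat, at -0.03. Gad1 and Slc32a1 were thus low in the RA Nkx2.2 line, whereas Slc6a5 was high in the RA wild type.

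Among 27 neuropeptide genes, 5 were called higher and 1 lower (22.2%, against 4.38% of all genes). Sst, which encodes somatostatin, read -4.62, -4.81 and -4.85 in the RA Nkx2.2 line, 0.77, -0.02 and 0 in the FGF8 Nkx2.2 line, 2.75, 3.04 and 4.16 in the FGF8 wild type, against 4.51, 3.67 and 3.39 in the RA wild type. Sst fell by 3.06 with FGF8 and fell by 8.62 with RA, and its interaction was 5.55 (SE 0.61, adjusted p 0.000109). Npy, neuropeptide Y, was high in the RA wild type alone, at 4.91, 3.25 and 4.0 (interaction 5.02, adjusted p 0.00156). Tac1, which encodes substance P, was high in both RA groups and higher in the wild type, with means of 7.33 and 4.41 (interaction 4.51, adjusted p 0.0128, and 0.0705 with the 12 arrays alone).

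Some general neuronal genes showed part of the same pattern. Of 14 pan-neuronal genes, Rbfox3, Elavl3 and Ina were called higher (21.4%, against 2.6% of all genes). Of 26 synaptic vesicle and release genes 5 were (19.2%), Syp, Sv2a, Sv2b, Rab3a and Bsn. Of these, 4 responded in the RA arm only. Sv2b responded in the FGF8 arm only, with line effects of 3.74 there and 0.70 in the RA arm. The Rab3a call was lost in 9 of the 12 fits that left out 1 array. That of Sv2b was lost in 3 of them, with the 12 arrays alone and with bioC as a block. The line lowered 6 of the 14 and 11 of the 26 in the RA arm, against 9.16% of all genes. The median line effects of the 2 lists were -1.07 and -0.78 in the RA arm and -0.47 and -0.01 in the FGF8 arm, beside medians near 0 over all genes. Rbfox3, the neuronal nuclear antigen, read 2.24, 1.87 and 1.99 in the RA wild type and between -1.66 and 0.46 on the other 9 arrays (interaction 2.82, adjusted p 0.0143). Elavl3, a neuronal RNA binding protein, read 1.45, 1.31 and 1.26 in the RA wild type and -1.94, -1.49 and -1.72 in the RA Nkx2.2 line (interaction 2.57, adjusted p 0.00888). Other neuronal markers did not all fall. In the RA arm the line effect was -1.33 for Tubb3, -0.20 for Stmn2, 0.02 for Snap25, 0.26 for Map2 and 1.67 for Syt1. None of these had a called interaction.

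Over the 14 pan-neuronal genes the mean ran from 0.08 to 0.15 in the RA wild type and from -1.16 to -0.76 in the RA Nkx2.2 line, which did not overlap. In the FGF8 arm it ran from 0.09 to 0.36 in the wild type and from -0.40 to 0.40 in the Nkx2.2 line, which overlapped. In these bulk samples, fewer neurons, less RNA per neuron and, in the RA arm, the 2 days between the groups cannot be told apart. The mean of the 14 genes was 0.05 in the NesE-Olig2 neurons of day 8. In the NesE-Lmx1a neurons it was -0.16 at day 10 and -0.77 at day 14. The part of time was not tested. The mean of 8 astroglial genes was 1.19 to 1.38 in the RA Nkx2.2 line, -0.43 to 0.72 in the RA wild type, -0.23 to 1.08 in the FGF8 Nkx2.2 line and -1.35 to -0.15 in the FGF8 wild type. Aqp4, the water channel of astroglia, lay at 3.41 or above on all 6 Nkx2.2 line arrays and at 0.63 or below on all 6 wild type arrays, and no astroglial gene had a called interaction in limma (1 at an unadjusted p under 0.05, and 1 called lower without replicate 2 of the FGF8 wild type). Over 9 oligodendrocyte and myelin genes the mean was 0.89 to 1.08 in the RA Nkx2.2 line and between -0.47 and 0.29 on the other 9 arrays. The part of these genes in the results above was not tested.

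A second set of genes was high in the RA Nkx2.2 line alone. Kcnj16, an inwardly rectifying potassium channel subunit, read 4.93, 5.41 and 5.78 there. On the other 9 arrays it lay between -0.08 and 0.81. The interaction was -5.17 (SE 0.50, adjusted p 2.29e-05), with a line effect of 5.45 in the RA arm and 0.27 in the FGF8 arm. The second Kcnj16 probe set gave -3.49. Outside the 12 arrays, the NesE-Lmx1a neurons of day 14 also read high, with a mean of 3.42, while those of day 10 averaged 0.02.

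Of 49 potassium channel genes, Kcnj16 was the one called lower, and 5 were called higher (Kcnc1, Kcnc2, Kcnf1, Kcnn1 and Kcnq3), 12.2% in all against 4.38% of all genes. With the 12 arrays alone only Kcnj16 and Kcnc1 were called, and the adjusted p was 0.102 for Kcnc2, 0.0778 for Kcnf1 and 0.0703 for Kcnq3. Leaving out 1 array lost the call in 9 of 12 fits for Kcnf1, 9 for Kcnn1, 6 for Kcnc2 and 4 for Kcnq3. Kcnj16 and Kcnc1 kept it in all 12. Kcnc1, a fast delayed rectifier, was high in the RA wild type alone, at 1.65, 1.68 and 2.27 (interaction 1.97, adjusted p 0.0129). Kcnn1, a calcium-activated channel, was low in the RA Nkx2.2 line alone, at -3.45, -3.26 and -1.67 (interaction 2.46, adjusted p 0.0404, and 0.0559 with the 12 arrays alone). Kcnj16 and Kcnc1, the pair called in both fits, thus had their differences in different groups.

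Cavin2, a caveolar coat protein, was raised in both RA groups and most in the Nkx2.2 line, at 6.43, 6.48 and 7.51 against 1.73, 2.29 and 2.41 in the RA wild type and -0.66 to 0.02 on the 6 FGF8 arrays. Its interaction was -4.78 (SE 0.35, adjusted p 1.46e-06). Slc15a2, a peptide transporter, read 5.12, 5.32 and 5.21 in the RA Nkx2.2 line and no more than 1.06 elsewhere (interaction -4.26, adjusted p 0.00878), a call that was lost within the second bioC set. Pdyn, which encodes prodynorphin, read 1.76, 1.65 and 2.29 against at most 0.23 elsewhere (interaction -1.84, SE 0.17, adjusted p 9.92e-06). Olig1, a factor of motor neuron and oligodendrocyte progenitors, read 3.46, 3.44 and 1.33 against values near 0 in the other groups (interaction -2.80, adjusted p 0.0193, and 0.0563 with bioC as a block).

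Genes of motile cilia, the beating axonemes of ependymal and other multiciliated cells, were high in the RA Nkx2.2 line. Of 22 measured, the line raised 13 in the RA arm and 2 in the FGF8 arm, and lowered none. Over all genes it raised 8.84% in the RA arm and 2.83% in the FGF8 arm, and the interaction was called lower for 1.78%. The interaction was called lower for 6, Cfap126, Rsph4a, Dynlrb2, Tekt1, Cfap43 and Rsph1, or 5 with the 12 arrays alone, 4 with bioC as a block, and 1 within the second bioC set. The list mean was 1.47, 1.5 and 2.26 in the RA Nkx2.2 line, -0.19 to 0.02 in the RA wild type, 0.82, 0.25 and 0.01 in the FGF8 Nkx2.2 line and -0.29 to -0.11 in the FGF8 wild type. The RA Nkx2.2 line was highest, and replicate 1 of the FGF8 Nkx2.2 line was the highest array of the remaining 9. This list was drawn up with the earlier results of these arrays known, so its direction is not independent evidence.

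Rsph4a, a radial spoke protein of motile cilia, read 3.50, 3.87 and 4.14 in the RA Nkx2.2 line and at most 0.99 elsewhere (interaction -3.59, SE 0.29, adjusted p 3.6e-06). Cfap52, a cilia and flagella associated protein outside the list, was among the 12 most negative interactions, with 4.16, 5.07 and 4.72 in the RA Nkx2.2 line and -0.11 to 0.06 on the other 9 arrays (interaction -4.64, SE 0.38, adjusted p 4.23e-06). The NesE-Lmx1a neurons of day 14 averaged 4.28 for Rsph4a and 4.25 for Cfap52, and the NesE-Olig2 neurons of day 8 averaged -0.03 and -0.04. Foxj1, the factor that drives motile ciliogenesis, read 1.78, 2.17 and 4.25 in the RA Nkx2.2 line and -0.03, 0.82 and 1.72 in the RA wild type, with an interaction of -1.17 that was not called (adjusted p 0.551).

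The promoter of Cfap126, a cilia and flagella associated protein, is shown because it holds an X-box, the palindrome-like motif of the RFX factors of ciliary genes. GTNNCC and GGNNAC with 2 bases between them were searched on both strands and found in 618 of 32851 windows (1.88%). Counted by gene, 10 of the 120 genes high in the RA Nkx2.2 line that have a promoter in the table held it (8.33%), against 386 of 14452 genes tested (2.67%). Of the 168 genes high in the RA wild type, 2 did (1.19%). Among 19 motile cilium genes with a promoter, 3 did, Cfap126, Rsph9 and Tekt4. The match in Cfap126, in capitals, starts 82 bases before the annotated start, in the window chr1:171122795-171123094 on the plus strand. A match is a description of the letters and not of binding.
Cfap126: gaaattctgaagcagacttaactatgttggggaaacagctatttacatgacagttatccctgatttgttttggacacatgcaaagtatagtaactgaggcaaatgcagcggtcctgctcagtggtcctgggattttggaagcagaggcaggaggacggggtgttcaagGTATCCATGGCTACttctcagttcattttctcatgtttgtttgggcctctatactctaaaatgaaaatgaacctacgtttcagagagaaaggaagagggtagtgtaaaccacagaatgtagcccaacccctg

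The plot of single genes shows the main shapes side by side.

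**Figure D5:**
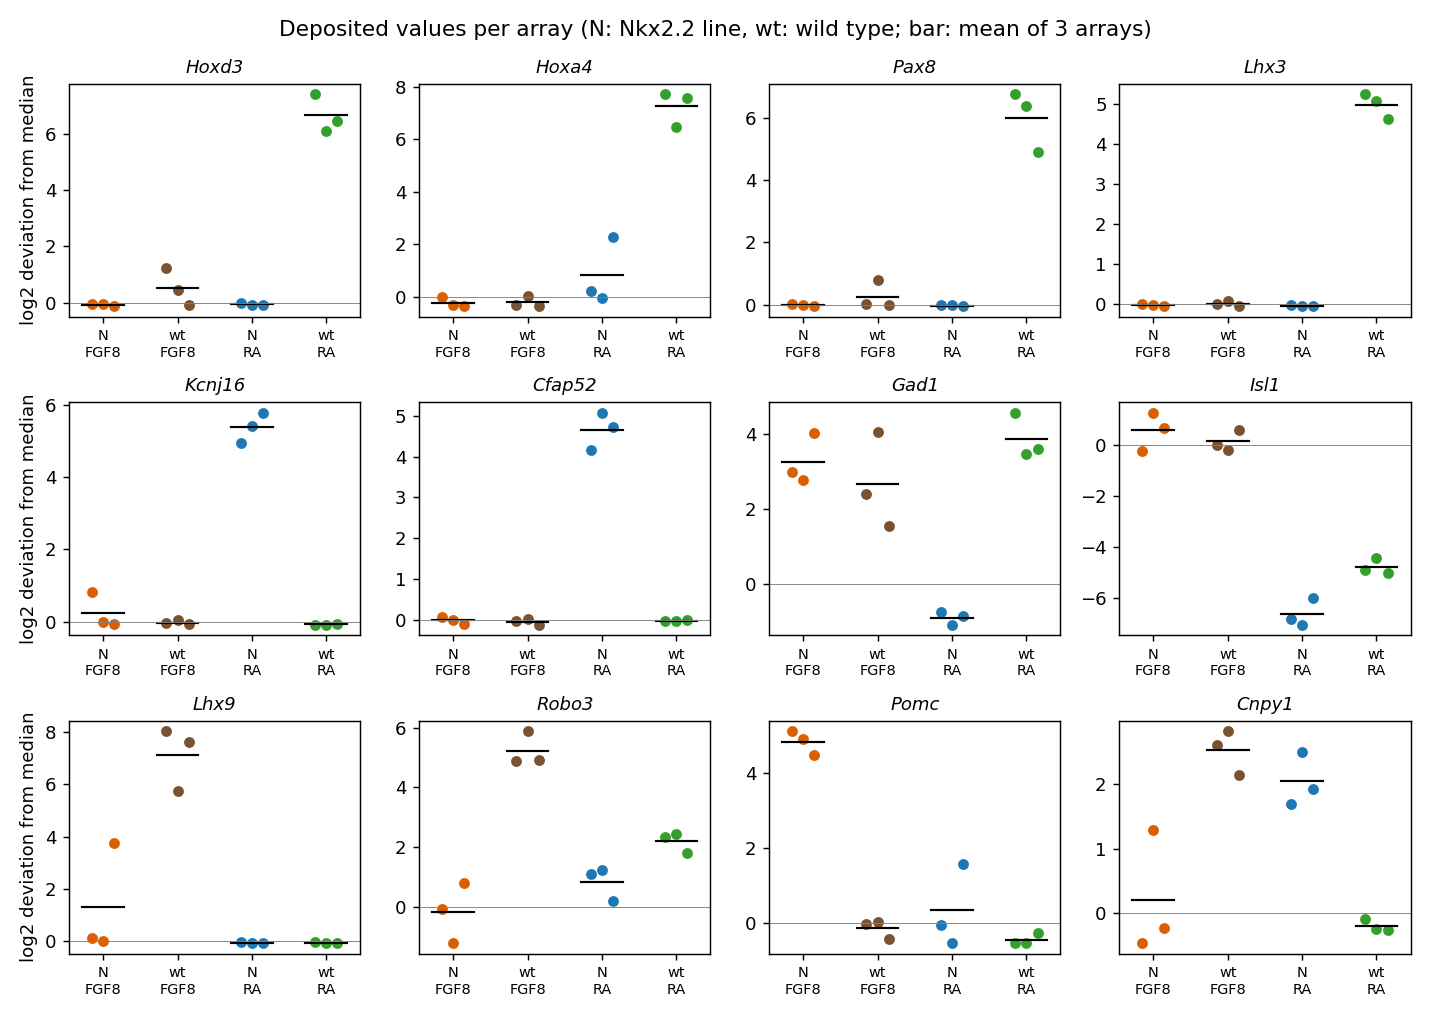
Deposited log2 deviation on each of the 12 arrays for 12 genes, in 4 groups of 3 arrays each with the group mean as a bar (N is the Nkx2.2 line, wt the wild type; each panel has its own scale). The top row is high in the RA wild type, with Hoxd3 at 6.09 to 7.41. The middle row is highest or lowest in the RA Nkx2.2 line, with Gad1 at -1.09 to -0.76. The bottom row differs in the FGF8 arm, with Pomc at 4.48 to 5.10 in the FGF8 Nkx2.2 line. In that row Robo3 and Cnpy1 also differ in the RA arm, with line effects of -1.36 and 2.24.

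Genes that responded in the FGF8 arm alone were mostly apart in the FGF8 wild type. Of the 28 that fell there, 22 were high in the FGF8 wild type (78.6%), and of the 47 that rose, 30 were low in it (63.8%). Among 23 dorsal progenitor and proneural genes, 4 were called lower (Olig3, Neurog1, Pax3 and Dbx1) and none higher (17.4%, against 4.38% of all genes). The line lowered 10 in the FGF8 arm and 5 in the RA arm, against 1.71% and 9.16% of all genes. Olig3 was unlike the other 3: it read 4.86, 3.20 and 0.77 in the RA Nkx2.2 line and rose by 2.81 in the RA arm. With the 12 arrays alone 1 of the 4 was called, Neurog1. Without replicate 2 of the FGF8 wild type 8 of the 23 genes were called lower.

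Lhx9, a LIM homeodomain factor of dorsal commissural neurons and of the midbrain, read 8.04, 5.75 and 7.63 in the FGF8 wild type. It read 0.11, -0.01 and 3.76 in the FGF8 Nkx2.2 line and -0.08 to -0.04 on the 6 RA arrays. The FGF8 wild type lay above all others, and replicate 3 of the FGF8 Nkx2.2 line above its own group. The line effect was -5.85 with FGF8 and 0 with RA, an interaction of -5.85 (SE 1.25, adjusted p 0.0152, and 0.0721 within the second bioC set). All 3 other probe sets of Lhx9 had the same sign.

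Neurog1, a proneural factor of dorsal progenitors, read 4.73, 3.69 and 5.41 in the FGF8 wild type and at most 0.74 elsewhere (interaction -4.34, adjusted p 0.0172). Pax3, a paired box factor of the dorsal neural tube, read 5.5, 2.37 and 5.56 there and at most 0.78 elsewhere (interaction -4.05, adjusted p 0.0128). Dbh, which makes noradrenaline, read 2.30, 2.98 and 3.47 in the FGF8 wild type and at most 0.05 elsewhere (interaction -2.92, SE 0.25, adjusted p 6.52e-06). The call of Neurog1 was lost without replicate 3 of the FGF8 wild type (adjusted p 0.0522), and that of Pax3 with the 12 arrays alone (adjusted p 0.0589). That of Dbh was kept in all 12 fits that left out 1 array. In those 12 fits the call of Dbx1 was lost in 10 and that of Olig3 in 5.

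Robo3, the guidance receptor of commissural axons, fell with the line in both arms, by 5.38 with FGF8 and 1.36 with RA. It read 4.87, 5.88 and 4.91 in the FGF8 wild type against 2.35, 2.43 and 1.81 in the RA wild type, and the Nkx2.2 line lay at or below 1.22 in both arms (interaction -4.02, adjusted p 0.00321, and 0.0647 within the second bioC set). It was the one guidance gene of 41 called lower, beside 7 called higher (Unc5a, Sema5a, Nrp1, Nrp2, Epha6, Efna3 and Efna5). Together they are 19.5% of the list, against 4.38% of all genes, and 7 of the 8 were also called with the 12 arrays alone. Epha6, an ephrin receptor, was high in the RA wild type alone, at 2.60, 1.98 and 2.19 (interaction 2.18, SE 0.17, adjusted p 2.01e-06).

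Of 31 Wnt pathway genes, 2 were called, both lower (6.45%, against 4.38% of all genes), and with the 12 arrays alone neither was. Sfrp2, a secreted Wnt modulator, read 2.99, 0.49 and 3.62 in the FGF8 wild type and fell by 3.99 with the line (interaction -4.93, adjusted p 0.0133, and 0.0538 with the 12 arrays alone). Rspo3, a Wnt agonist, read 3.93, -0.88 and 3.71 there, so replicate 2 overlapped the other groups (interaction -4.69, adjusted p 0.0422, and 0.149 with the 12 arrays alone). The Rspo3 call was lost in 10 of the 12 fits that left out 1 array. Without replicate 2 of the FGF8 wild type 9 Wnt genes were called lower.

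Of 28 BMP and TGF-beta genes, 4 were called higher and 1 lower (17.9%, against 4.38% of all genes), and they did not share a group. Fst, the activin and BMP antagonist follistatin, was low in the FGF8 wild type alone, at -1.38, -1.89 and -0.84 against 1.2 to 2.76 on the other 9 arrays (interaction 4.05, SE 0.77, adjusted p 0.00792). Inhba, an activin subunit, and Smad7, an inhibitor of the pathway, were highest in the RA wild type and fell by 2.05 and 2.03 in the RA arm, with line effects of -0.03 and 0.21 in the FGF8 arm. Bmpr1b, a BMP receptor (interaction -3.97), and Id4, a target of BMP signalling (interaction 1.37), had a line effect called in neither arm. With the 12 arrays alone 3 of the 28 were called, Fst, Smad7 and Id4.

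The FGF8 Nkx2.2 line carried 16 interactions. Pomc, the precursor of melanocortin peptides, read 5.10, 4.89 and 4.48 there and at most 1.57 elsewhere (interaction 4.18, SE 1.12, adjusted p 0.0419). That call was lost in 10 of the 12 fits that left out 1 array. Cited1, a transcriptional coactivator, read 4.60, 5.03 and 2.92 there and at most 1.38 elsewhere (interaction 3.89, adjusted p 0.00272, and 0.0696 within the second bioC set). Hmx3, a homeodomain factor, read 3.14, 3.07 and 2.04, with 0.49 as the highest value elsewhere (interaction 2.59, SE 0.29, adjusted p 0.000115), and Hmx2, a related factor, read 3.38, 1.53 and 3.03 (interaction 2.64, adjusted p 0.00286, and 0.093 within the second bioC set).

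In 9 genes the line effect was called in both arms with opposite signs, and all 9 were also called with the 12 arrays alone and with bioC as a block. Cnpy1, a modulator of FGF signalling at the isthmus, read 2.61, 2.83 and 2.15 in the FGF8 wild type, against -0.47, 1.29 and -0.23 in the FGF8 Nkx2.2 line. In the RA arm the order was turned, with 1.70, 2.51 and 1.93 in the Nkx2.2 line and -0.09, -0.25 and -0.26 in the wild type. The line effect was -2.33 with FGF8 and 2.24 with RA, an interaction of -4.57 (SE 0.59, adjusted p 0.000565).

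Nxph1, a ligand of neurexins at synapses, went the other way, with a rise of 2.15 under FGF8 and a fall of 3.29 under RA (interaction 5.44, SE 0.67, adjusted p 0.00034). It read 1.21, 1.29 and 1.15 in the FGF8 Nkx2.2 line and 3.28, 2.35 and 2.79 in the RA wild type, above the other 6 arrays, which lay between -1.98 and 0.24. Nrp1, a receptor of semaphorins, rose by 1.33 and fell by 1.43 (interaction 2.76, SE 0.28, adjusted p 4.01e-05). Without replicate 2 of the FGF8 wild type, 51 genes met the opposite-sign rule.

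None of 14 genes of the FGF response had a called interaction, and with 4.38% of all genes called, a list this short holds few calls at the background rate. In limma 1 of the 14 had an unadjusted p under 0.05, and the same count of 0 came with 12 arrays and without replicate 2 of the FGF8 wild type, while array weights called 1 higher and 4 lower. Spry1, an FGF feedback inhibitor, fell by 2.62 in the RA arm, with an interaction of 1.96 (SE 0.82, adjusted p 0.193). Among 16 hedgehog pathway genes, likewise a short list, limma called none, with 4 at an unadjusted p under 0.05 and 1 called lower without replicate 2 of the FGF8 wild type.

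The cell cycle genes turned on a single array. With all arrays limma called none of 27, with 2 at an unadjusted p under 0.05 and a median interaction of -1.45. Without replicate 2 of the FGF8 wild type 24 of the 27 were called lower, the median was -3.05, and the line effect in the FGF8 arm was called lower for 26. Mki67, a marker of dividing cells, read 1.79, -2.32 and 2.2 in the FGF8 wild type, -0.83, -0.79 and 0.17 in the FGF8 Nkx2.2 line, -1.34, 0.09 and -0.70 in the RA wild type and -0.08, 0 and 0.47 in the RA Nkx2.2 line. Its interaction was -1.81 (adjusted p 0.494) with that array and -3.25 (adjusted p 0.00517) without it. Within the second bioC set 15 of the 27 were called lower.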

How the data were processed

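RNA from neurons of 21 samples was hybridised to Affymetrix mouse arrays, 3 per group. The deposited values are on the log2 scale and came from GCRMA, per the submitters' processing notes, with no release of it named. The values are deviations from a probe set's median: of the 21 arrays used here, at most 13 lie above 0 and at most 13 below 0 for any probe set, as a median over 27 arrays would give. Of 45101 probe sets, 34945 named 1 gene, 932 several and 9160 none, and 64 were controls. For 9010 genes with several probe sets, the one with the largest SD over the 21 arrays was kept.

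A model with 7 groups was fitted to 21 arrays in limma 3.58.1 (R 4.3.3), with Benjamini-Hochberg adjustment over 18193 genes; the script was tested on simulated data. Named genes were Hoxd3, Lhx1, Kcnj16 and Nkx2-2, the 12 largest called interactions each way, the 5 with the largest gap per group, called list members, and all members of the serotonergic, Hox, retinoic acid, FGF and timing lists. Cell cycle and other marker genes and Foxj1, beyond that rule, serve as checks. The members and lists were chosen with earlier results of these data known. Alternatives were the 12 arrays alone, bioC and replicate blocks, other moderation, array weights, probe set choices, centring, a range filter, a larger fold and left-out arrays; the carrier and list counts without replicate 2 of the FGF8 wild type were chosen after seeing the data. The number of arrays limits the precision.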

Additional observations from a re-analysis of the deposited data

Results flagged for a closer look

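In 9 genes the line effect ran in opposite directions in the 2 arms, with the interaction itself tested in limma and called. The interaction was negative, with a fall under FGF8 and a rise under RA, for Cnpy1 (-4.57), Smoc1 (-4.0), Nkain4 (-2.69) and Enox2 (-2.41). It was positive, with a rise under FGF8 and a fall under RA, for Nrp1 (2.76), Nt5dc3 (2.95), Ptprr (3.27), Tafa2 (3.71) and Nxph1 (5.44). Of these, Cnpy1, Nrp1 and Nxph1 were named by rule, and the other 6 because they meet this condition.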

How the results depend on the processing

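No called interaction reversed its sign under any alternative tried for the named genes, and 12 of the 741 calls that could be retested did so with probe sets that have no name suffix. With the 12 arrays alone 189 genes were lower and 46 responded in the FGF8 arm only. Within the second bioC set these numbers were 509 and 293, and without replicate 2 of the FGF8 wild type and replicate 1 of the FGF8 Nkx2.2 line together, a pair known from earlier results, 752 and 276. Array weights gave 1586 higher, 1862 lower, 685 in the FGF8 arm only and 1842 in the RA arm only. A threshold of 2 log2 units gave 234, 148, 43 and 196. Leaving out 1 array gave 233 to 682 genes higher and 169 to 834 lower, 30 to 342 in the FGF8 arm only and 308 to 850 in the RA arm only. The highest values came without replicate 2 of the FGF8 wild type, or for the RA arm only without replicate 3 of the RA wild type, and the lowest without replicate 1 or 3 of the FGF8 wild type. The cause was not tested. The share of calls that were higher was 59.4% in the fit reported, 71.3% with the 12 arrays alone, 48.3% within the second bioC set and 46% with array weights.

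With the replicate number as a block, 467 genes were higher and 300 lower, 74 responded in the FGF8 arm only and 558 in the RA arm only, and 712 of the 796 calls were kept. The deviations of arrays with the same number correlated by 0.0229 on average over 18 pairs (-0.35 to 0.313). For 36 pairs of different numbers the mean was -0.0132. Pairs of replicate 3 were all positive, at 0.0367 to 0.313, while pairs of replicates 1 and 2 ran from -0.35 to 0.281. Labelling controls averaged -0.996, 0.207 and -0.675 on replicate 3 of the FGF8 Nkx2.2 line, RA Nkx2.2 line and RA wild type. Replicates 1 and 2 of these groups lay at 0.630 or above. In the FGF8 wild type replicate 3 was the highest, at -0.245. Whether replicate 3 shares a batch was not tested.

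Signal over background cannot be read from centred values. Of the 105 named genes with a called interaction, 65 had other probe sets, and only Hoxc6 and Ncam1 had one with an opposite sign of 0.5 or more.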
